A study of Ginkgo biloba with 2 samples.

Results

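MADS-box transcription factors of ginkgo (*Ginkgo biloba*) were followed in messenger RNA from mature ovules and from fully expanded leaves. The members were the reference sequences whose closest protein by BLAST carried, species name left aside, the words MADS, agamous, Short Vegetative Phase, Deficiens, Pistillata or Apetala3 in its description. The rule found 34 of 64515 sequences: 31 had a ginkgo protein as best hit and 3 a protein of another plant. They fell under 15 descriptions, here called factors. Members of a factor can be pieces or copies of the same gene, or different genes that share a best hit. Which of these holds was not tested, so sums over a factor need not describe a single gene. By kind, 15 were assembled sequences, 10 were GenBank records of ginkgo genes and 9 were GenBank expressed sequence tags (ESTs, single reads of cloned cDNA).

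The ovules and the leaves came from female trees and were harvested in April 2012, as the labels give it, with 1 sequencing library per tissue. How many trees were pooled is not given in the sources used here. With 1 library per tissue there is no replicate and no test, and each difference below sets 1 library against the other. Intervals on reads are exact 95% intervals (Clopper-Pearson for a fold, Poisson for a level) and cover counting error only. In whole tissue, fewer cells that carry a transcript and less of it per cell cannot be told apart.

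MADS-box proteins bind DNA as dimers or larger complexes at short AT-rich elements called CArG boxes. In flowering plants they specify the organs of the flower, and AGAMOUS and its relatives act in carpels and ovules. Gymnosperms such as ginkgo make no flowers, yet carry several of the same subfamilies, and genes of the AGAMOUS group are active in their reproductive structures. Some MADS-box genes of flowering plants, among them SVP in *Arabidopsis*, act in vegetative tissue and on the time of flowering.

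The ovule library held 4581771 uniquely mapped reads and the leaf library 4245222. Levels are the authors' RPKM: uniquely mapped reads scaled by sequence length, per 1000 bases, and by library size, per 1000000 reads. Summed over sequences, tissue markers lay as the labels have it. Rubisco activase, an enzyme of green tissue, had 154 ovule and 2039 leaf reads over 5 sequences, and antenna proteins of photosynthesis 2628 and 7875 over 15. A Rubisco activase EST went the other way, with 12 ovule and 0 leaf reads. AINTEGUMENTA-like sequences, of a family active in ovule growth in *Arabidopsis*, had 282 and 0 over 2 sequences. Anthocyanidin reductase, also taken as an ovule marker, had 2754 and 164 over 7. Descriptions naming pollen, anther, tapetum or stamen were at 2297 ovule and 6001 leaf reads over 16 sequences, mostly pollen allergen homologues, and their part in the results was not tested.

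Messages of a few ginkgo MADS-box factors were abundant in ovule and nearly absent from leaf, while others were low in both. The members took 1692 reads in ovule and 182 in leaf, 8.61-fold more in ovule after scaling for depth (7.39 to 10.1). The GenBank records of GbMADS8, the AGAMOUS-like factor and GbMADS10 held 1438 of these ovule reads and 2 of the leaf reads. Without the GbMADS8 record the excess on the other 33 members was 3.48-fold. The 15 assembled members had 76 ovule and 112 leaf reads and leaned the other way, 1.59-fold toward leaf (1.18 to 2.16).

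GbMADS8, a ginkgo MADS-box factor named in GenBank, stood highest of all members in ovule. Its record of 1244 bases reached an ovule RPKM of 178 (167 to 189), from 1012 reads, and a leaf RPKM of 0.189 (0.00479 to 1.06), from 1 read. In ovule it ranked 639 of 50240 listed sequences by RPKM, and 57439 of 58121 in leaf. Among the other sequences with GbMADS8 as best hit, a contig went the other way and an EST had too few reads to tell. An assembled contig of 1272 bases (CL4523.Contig2, E value 5.1145e-73) had 1 ovule and 9 leaf reads and was 9.71-fold higher in leaf (1.35 to 426), with RPKM of 0.172 and 1.67. An EST of 584 bases had 1 read in ovule and none in leaf. The intervals of the record and of the contig do not overlap and lie on opposite sides of equal levels. The record hit GbMADS8 with a smaller E value, 5.95051e-135, and whether the contig is from the same gene was not tested. The 9 leaf reads of the contig covered only 6.37% of its bases, about 81 of 1272. These intervals treat reads as independent counts, which reads stacked on a short stretch may not be, and this was not tested. Summed over the 3 sequences, GbMADS8 had 1014 ovule reads and 10 in leaf. The interval of this summed fold ran from 50.9 to 197 toward ovule, and 9 of the 10 leaf reads lay on the contig.

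**Figure D1:**
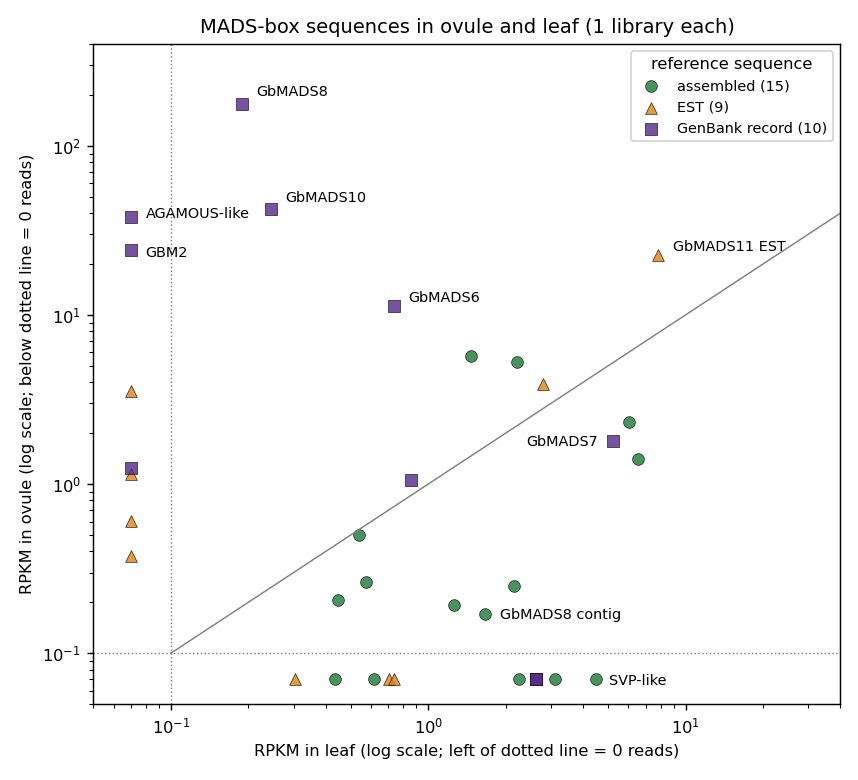
RPKM in leaf (horizontal) and in ovule (vertical) for the 34 MADS-box sequences, both on log scales, with 1 point per reference sequence, coloured by its kind; the grey line marks equal levels, points past a dotted line had 0 reads in that library, and the points of GBM6 and GBM13 coincide. GenBank records reach from 178 RPKM in ovule (GbMADS8) to 0, and most assembled sequences lie on the leaf side of the line.

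The AGAMOUS-like factor is the ginkgo member described after AGAMOUS, which in *Arabidopsis* specifies stamens and carpels and acts with its closest relatives in ovule identity. Its record of 1372 bases had 240 ovule reads, an RPKM of 38.2 (33.5 to 43.3), and 0 leaf reads, where 3 reads would give an RPKM of 0.515. Set against those 3 reads, which a count of 0 still allows, its ovule level was 74.1-fold higher. Such a bound takes the reads of the other library as exact, and the exact interval of the fold, which also covers their counting error, started lower, at 59.8. No other member carried this description.

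GbMADS10, on a record of 963 bases, had 186 ovule reads and 1 leaf read. Its ovule RPKM was 42.2 (36.3 to 48.7) and its leaf RPKM 0.245. An EST of 675 bases with GbMADS10 as best hit pointed the same way, with 11 ovule reads and 0 leaf reads. Its ovule level was 3.40-fold above the leaf floor of 3 reads, with an interval of the fold that starts at 2.33. Together they had 197 and 1 reads, a 183-fold difference (32.4 to 7246). For this factor the named record and the EST thus lay on the same side, and no assembled sequence was attached to it. In ovule the RPKM of the GbMADS10 and AGAMOUS-like records did not differ beyond their counting intervals, and both lay below the GbMADS8 record. Their reads covered unlike shares of the bases, 53.37% for GbMADS10 and 16.25% for the AGAMOUS-like record. RPKM divides by full length, so near-equal RPKM does not show equal levels on the bases that were read.

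GbMADS6 also leaned to ovule, on 1 of its 3 sequences. The record of 960 bases had 50 ovule and 3 leaf reads, with levels of 11.4 (8.44 to 15.0) and 0.736 RPKM, a 15.4-fold difference (4.99 to 77.4). An EST of 675 bases had 12 and 8 reads, a ratio of 1.39 that was not detectably different from 1 (0.522 to 3.92). An assembled sequence of 823 bases (Unigene753) had 1 and 2 reads. The summed 63 and 13 reads put ovule 4.49-fold above leaf (2.45 to 8.89), a ratio that fell to 1.20 when the record was set aside (0.488 to 3.07).

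GbMADS11 sequences were read in both tissues and split by sequence. The most-read one, an EST of 691 bases, had 72 ovule and 23 leaf reads. Its levels were 22.7 RPKM (17.8 to 28.6) and 7.84 RPKM (4.97 to 11.8), with ovule 2.90-fold above leaf (1.79 to 4.86). Its leaf level was the highest RPKM of any member in leaf. A pair of contigs from a single assembly cluster went opposite ways. CL4894.Contig1 had 21 ovule and 5 leaf reads, a ratio of 3.89 toward ovule (1.43 to 13.2). CL4894.Contig2 had 1 and 8, a ratio of 8.63 toward leaf (1.16 to 383). These intervals do not overlap, but the reads lay on short stretches. The 21 ovule reads of CL4894.Contig1 covered about 85 of 804 bases. The 8 leaf reads of CL4894.Contig2 covered about 77 of 878. The GenBank record of GbMADS11 had only 4 ovule reads and 0 leaf reads, and CL8095.Contig3, a weak hit with an E value of 6.33438e-15, had 1 and 2. Over the 5 sequences the sum was 99 ovule and 38 leaf reads, a ratio of 2.41 (1.65 to 3.61). When the EST was set aside the ratio was 1.67 and its interval reached below 1 (0.856 to 3.37).

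GbMADS1 was read at low levels in both tissues, mainly on an assembled sequence of 1494 bases. That sequence, Unigene24686, had 36 ovule and 14 leaf reads and levels of 5.26 and 2.21 RPKM, a 2.38-fold difference (1.25 to 4.78). Its E value of 1.16474e-143 was the smallest of all members, although no GenBank record of GbMADS1 was among them. The other 5 sequences had 6 ovule and 9 leaf reads in all, each with an interval that includes 1. The sum of 42 and 23 reads gave 1.69-fold, with an interval that just includes 1 (0.995 to 2.95).

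GbMADS7 leaned to leaf on each of its 5 sequences, all but CL3198.Contig8 with an interval that excludes 1. Its record of 1086 bases had 9 ovule and 24 leaf reads. The levels were 1.81 RPKM (0.827 to 3.43) and 5.21 RPKM (3.34 to 7.75), with leaf 2.88-fold above ovule (1.29 to 7.04). The assembled Unigene22869 gave almost the same counts, 10 and 24, a ratio of 2.59 toward leaf (1.19 to 6.07). Unigene22871, a short and weak hit with an E value of 9.92989e-10, had 3 and 13 reads, a ratio of 4.68 toward leaf (1.29 to 25.6). CL3198.Contig6 had 0 and 9 reads, with leaf 3.24-fold above the ovule floor of 3 reads (interval from 2.13). Its 9 leaf reads covered about 99 of 945 bases, and the 13 of Unigene22871 about 89 of 468. Reads stacked in this way may not be the independent counts that the intervals assume. CL3198.Contig8 had 0 and 3, a difference not detectable at this depth. These 2 contigs hit GbMADS7 at E values of 6.75901e-42 and 5.83204e-41, against 3.38811e-136 for the record. Over the 5 sequences the sum was 22 ovule and 73 leaf reads, a leaf excess of 3.58-fold (2.20 to 6.06). It was 4.41-fold (2.31 to 9.10) when the most-read sequence was set aside. GbMADS7 alone made up 40.1% of the leaf reads on members and 1.30% of the ovule reads.

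**Figure D2:**
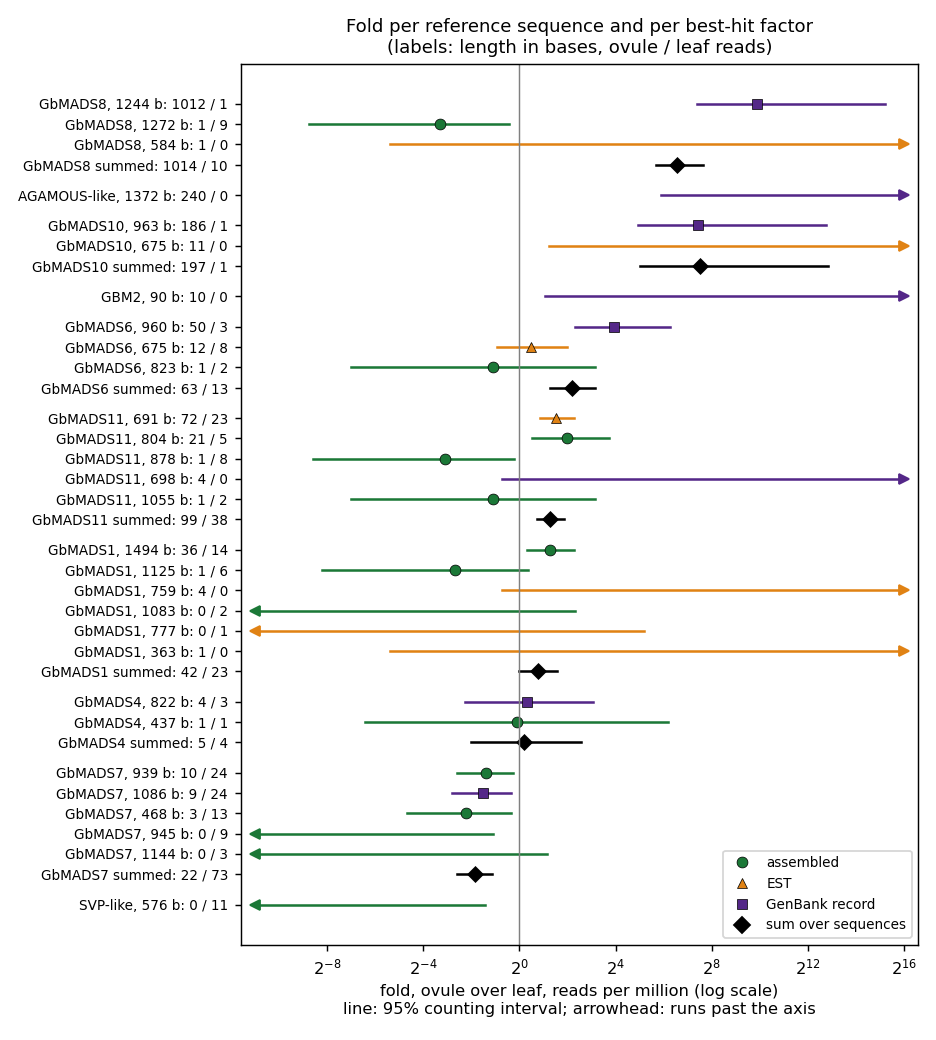
Fold of ovule over leaf in reads scaled for depth (log scale) for the sequences of 10 factors, with each label giving length in bases and ovule and leaf reads; lines are 95% counting intervals, arrowheads run past the axis or to a count of 0, and black diamonds are sums over the sequences of a factor. The GbMADS8 record and contig lie on opposite sides of 1, whereas all 5 GbMADS7 sequences lie toward leaf, CL3198.Contig8 with an interval that includes 1.

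Among the remaining factors, those with a plant model name were toward leaf at few reads. The SVP-like Unigene11388 was hit, at an E value of 2.05108e-18, by a *Medicago truncatula* protein named for SVP, which in *Arabidopsis* delays flowering. It had 0 ovule reads and 11 leaf reads over 576 bases. Its RPKM in leaf was 4.50 (2.25 to 8.05), 3.96-fold above the ovule floor of 3 reads (interval of the fold from 2.71). Unigene9733, a weak hit (E value 1.11748e-09), is described after AGL80, which in *Arabidopsis* is needed in the central cell of the female gametophyte. It had 0 and 3 reads over 227 bases, a difference not detectable at this depth. Its deposited gene ontology terms include the polar nucleus, a female gametophyte structure, and its only reads came from leaf. A pine-like EST of 640 bases and a GbMADS3 EST of 672 bases had 0 and 2 reads each.

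GbMADS4 had 4 and 3 reads on its record and 1 and 1 on Unigene42968, and the sum of 5 and 4 reads gave 1.16-fold with an interval from 0.249 to 5.84. The GBM members are GenBank records of 90 bases. GBM2 had 10 ovule reads and 0 leaf reads, an RPKM of 24.3 in ovule (11.6 to 44.6). It stood 3.09-fold above the leaf floor of 3 reads, with an interval of the fold that starts at 2.08. GBM6 and GBM13 had 0 and 1 reads each. A single read on 90 bases gives an RPKM of 2.62 in leaf, so both passed the filter below on 1 read.

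Ordered by RPKM in ovule, GbMADS8 came first, then GbMADS10, the AGAMOUS-like record, GBM2, the GbMADS11 EST and the GbMADS6 record. This order depends on RPKM over full length, and counting error does not cover reads stacked on part of a sequence. Within counting error GbMADS8 was apart from the rest. GbMADS10 and the AGAMOUS-like record both exceeded the GbMADS11 EST, whose interval overlaps that of GBM2. In leaf the order was the GbMADS11 EST at 7.84, Unigene22871 at 6.54 (3.48 to 11.2), Unigene22869 at 6.02 (3.86 to 8.96), the GbMADS7 record at 5.21 and the SVP-like sequence at 4.50. No neighbours among these 5 differed beyond their counting intervals. The highest member in ovule thus reached 178 RPKM and the highest in leaf 7.84.

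For counts of members, the ratio was log2((RPKM in ovule + 0.5)/(RPKM in leaf + 0.5)) over sequences that reached 1 RPKM in either library, and a call needed an absolute log2 ratio of at least 1, that is 2-fold. This scale understates differences of low sequences. Of the 34 members, 24 passed the filter and 10 did not. Calls toward ovule and toward leaf were equal in number, 11 each, and 2 members were under 2-fold. Among all sequences past this filter, ovule calls made up 27.3% and leaf calls 35.1%. The median log2 ratio of the members was 0.31 (-1.82 to 1.81, order-statistic interval), beside -0.10 over all sequences, and 0.20 with an empty library set at 3 reads. Asking also for a counting interval that excludes 1 left 9 in ovule and 7 in leaf, against 17.3% and 13.6% of all sequences.

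Many calls rested on few reads. A sequence with 0 reads in a library needed at least 6 reads in the other for its interval to exclude 1, and 15 members had fewer reads than that in all. Of the 15 members with at least 10 reads, 9 were called toward ovule, 5 toward leaf and 1 neither way. The 19 members with 1 to 9 reads held 2 ovule calls and 6 leaf calls, and 10 of them were below the filter. In 2 of these 19 the interval excluded 1, both toward leaf (CL4894.Contig2 and CL3198.Contig6). The called member nearest to the threshold was Unigene24686 at a log2 ratio of 1.09, and the uncalled one nearest to it the GbMADS6 EST at 0.41. At the expression filter, the GbMADS4 record was just inside with an RPKM of 1.06 and the pine-like EST just outside with 0.736.

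The kind of reference sequence moved with the direction. Among assembled members past the filter, 2 of 10 were called toward ovule and 8 toward leaf, and the median log2 ratio was -1.76. Among all assembled sequences the ovule calls were 25.2% and the leaf calls 36.4%. Among GenBank members, 9 of 14 were called toward ovule and 3 toward leaf, the median was 1.77, and over all GenBank sequences these shares were 55.6% and 17.6%. The 9 of 14 is therefore near the background of GenBank sequences. None of the 15 assembled members was read in ovule alone, against 7 of 19 from GenBank, and over all sequences these shares were 7.25% and 35.5%. The identifiers of the assembled sequences carry a tag naming ginkgo leaf, and its part in this difference was not tested.

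**Figure D3:**
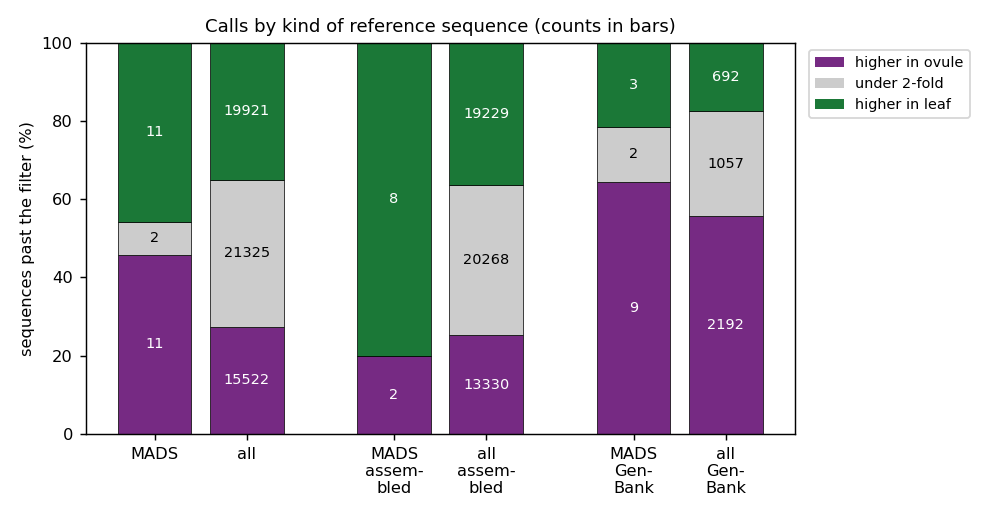
Share of sequences past the filter that were higher in ovule, under 2-fold or higher in leaf, in percent, for MADS-box sequences and all sequences, together and by kind of reference sequence, with counts in the bars. Assembled members lean to leaf (8 of 10) and GenBank members to ovule (9 of 14), and all GenBank sequences lean to ovule as well (2192 of 3941).

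The reads on the GbMADS8 and AGAMOUS-like records lay on a small part of each sequence. The 1012 ovule reads of the GbMADS8 record covered 29.58% of its bases, about 368 of 1244. The 360 other sequences with read number and length within 1.5-fold of it had a median coverage of 93.99%, and 16 of them were covered as little or less. The 240 reads of the AGAMOUS-like record covered 16.25%, against a median of 92.3% in 1623 like sequences, of which 19 were as low. GbMADS10 was covered to 53.37%, against 92.2% in 1382 like sequences, of which 291 were as low.

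Of 17 pairs of a member and a library with at least 10 reads, 14 were covered less than the median of their like sequences. GBM2 was covered more, 95.56% against 57.9%, with 2 like sequences to compare. The 36 ovule reads of Unigene24686 (GbMADS1) covered 9.84%, against 46.8%, and the 21 of CL4894.Contig1 (GbMADS11) 10.57%, against 54.4%. The GbMADS6 record was covered to 25.62% in ovule, against 74.5%, and Unigene22871 (GbMADS7) to 19.02% in leaf, against 62.6%. The pairs nearest to the median of their like sequences were Unigene22869 (GbMADS7) in ovule (24.92% against 26.8%), the GbMADS6 EST in ovule (45.93% against 43.4%), the SVP-like sequence in leaf (59.03% against 54.3%) and the GbMADS10 EST in ovule (37.04% against 42.2%). RPKM divides by the full length, so for the members covered in part it averages over bases without unique reads. Whether reads shared with other sequences were lost from the uncovered bases was not tested.

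Genes that work with MADS-box factors in *Arabidopsis* or snapdragon were followed as lists of descriptions. LEAFY, an activator of AGAMOUS in *Arabidopsis*, had 16 ovule and 0 leaf reads on a GenBank record. Its ovule level was 4.94-fold above the leaf floor of 3 reads (interval from 3.57). All 4 SBP-domain sequences, of a family found by its binding to the promoter of the MADS-box gene SQUAMOSA in snapdragon, were on the ovule side and 3 were called higher there, with a median log2 ratio of 1.38. The most-read of them, an SPL14-like sequence (CL5658.Contig2), stood at 118 RPKM in ovule and 42.3 RPKM in leaf, and an SPL12-like sequence (Unigene26274) had 66.3 and 8.59, a 7.72-fold difference (6.15 to 9.80).

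Lists that hold MADS-box repressors were mixed. Corepressors of the SEUSS, LEUNIG and TOPLESS families, of which SEUSS and LEUNIG restrain AGAMOUS in *Arabidopsis*, had 5 of 11 sequences called toward ovule and none toward leaf, and their median was 0.01. With an interval that excludes 1, 4 of these ovule calls remained, beside 17.3% of all sequences. The most-read corepressor, a TOPLESS-related sequence (Unigene1322), stood at 30.9 RPKM in ovule and 45.3 RPKM in leaf, 1.47-fold toward leaf (1.32 to 1.63). CL3947.Contig2, Unigene11387 and Unigene23220 also leaned to leaf, by 1.53-, 1.93- and 1.74-fold. All of these were under the 2-fold call, with intervals that exclude 1. A SEUSS-like sequence (Unigene20156) had 51.1 and 19.2, a 2.66-fold difference (2.33 to 3.04). Polycomb and VERNALIZATION sequences had 1 of 6 called toward ovule, 1 toward leaf and 4 neither way. The leaf call rested on 0 ovule and 5 leaf reads, with an interval that includes 1. The ovule call was an EZ1-like histone methyltransferase (CL2447.Contig1), of the family that keeps AGAMOUS silent in *Arabidopsis* leaves, with 53 and 3 reads, a 16.4-fold difference (5.31 to 81.9). The most-read of the list, a VERNALIZATION INSENSITIVE 3-like sequence (CL2454.Contig1), had 166 and 131 reads, a 1.17-fold difference (0.928 to 1.49).

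Flowering-time lists went separate ways. CONSTANS-like sequences, named for a zinc finger factor of daylength response, had 5 of 6 higher in leaf and none in ovule, with a median of -1.81. The most-read, Unigene6429, stood at 53.4 RPKM in ovule and 261 RPKM in leaf, a leaf excess of 4.90-fold (4.43 to 5.42). Autonomous pathway sequences, which lower the MADS-box repressor FLC in *Arabidopsis*, had 1 of 8 higher in ovule and 7 under 2-fold. The one called was an FCA sequence (Unigene16816) with 475 and 163 reads, and the most-read, an FY-like sequence (Unigene16617), had 716 and 687.

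The ovule patterning list, which holds AINTEGUMENTA, BEL1-like and WUSCHEL-related sequences, had 7 of 14 called toward ovule and 2 toward leaf, and its median was 1.03. The ovule calls include the 2 AINTEGUMENTA-like sequences used above as a tissue marker, and the 2 leaf calls were BEL1-like sequences. With an interval that excludes 1, the calls were 6 and 2, beside 17.3% and 13.6% of all sequences. The most-read sequence of this list, a BEL1 homologue (CL1070.Contig9), stood at 68.9 RPKM in ovule and 54.5 RPKM in leaf. No description matched the patterns for FT and TERMINAL FLOWER. Each of these lists is read beside the 27.3% and 35.1% of all sequences called toward ovule and leaf. Among all GenBank sequences these shares were 55.6% and 17.6%. The LEAFY, AINTEGUMENTA-like and WUSCHEL-related sequences were all of this kind, so their ovule calls are to be read beside the 55.6%. The lists were not tested against each other or against the MADS-box members.

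**Figure D4:**
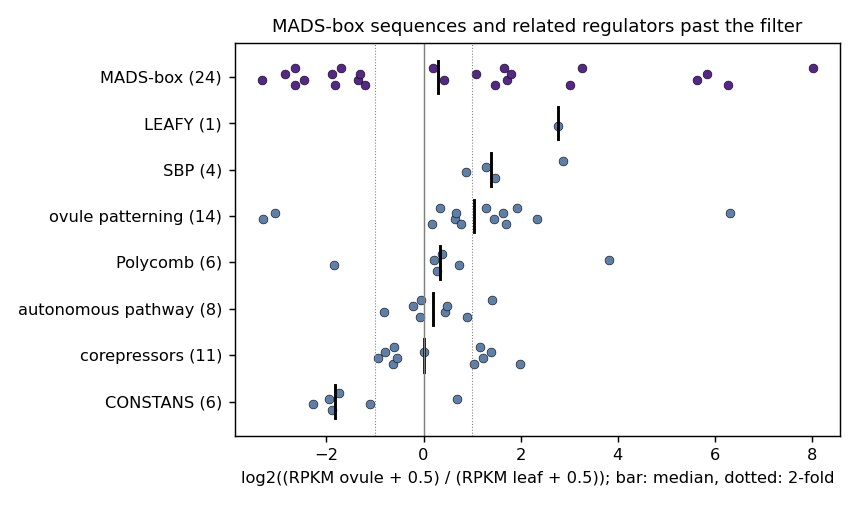
Log2 ratio of ovule over leaf for MADS-box sequences and 7 related lists past the filter, with 1 point per sequence, the number past the filter in brackets, a black bar at each median and dotted lines at 2-fold. MADS-box ratios spread from -3.32 to 8.01, and CONSTANS-like sequences lie mostly toward leaf (median -1.81).

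Likeness to GbMADS8 and GbMADS10 was measured as the distance in log2(RPKM + 0.5) over the 2 libraries, among 6575 other described sequences. Nearest to the GbMADS8 record were a chalcone synthase homologue EST with 730 and 1 reads (distance 0.31), an FKBP12-type peptidyl-prolyl isomerase EST with 498 and 1 (0.35) and a xyloglucan endotransglucosylase/hydrolase (Unigene42024) with 151 and 0 (0.48). Nearest to the GbMADS10 record were ESTs of a receptor-like kinase with 137 and 1 reads (0.20), a DUF231 protein with 138 and 1 (0.22) and a methyltransferase with 108 and 1 (0.30). With 2 libraries, likeness says only that levels were close in both.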

How the data were processed

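Messenger RNA was sequenced from 1 ovule and 1 leaf library. For every reference sequence the authors deposited, per the file headers, a count of unique reads, the length, the percent of bases covered and the RPKM. Not given in the sources used here are the aligner, the assembler and the BLAST settings. Checked on the tables, counts summed to the header totals (4581771 and 4245222), and a sequence absent from a table was taken as 0 reads. Tables were joined by identifier, and members, lists and factors came from the descriptions. Sequences whose best hits share a description were summed as a factor.

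Members and lists were chosen with earlier results of these data known. The patterns SPL and anthocyanidin reductase were matched as whole words. Named were all ginkgo factors, all members with at least 10 reads, the most-read sequence of each list and the 3 nearest patterns; the EZ1-like, FCA, SEUSS-like and SPL12-like sequences and members with few reads were added after their values were seen. So was the coverage comparison. Its 1.5-fold window was set last, for its larger number of like sequences, after windows of 20% and 25% had been run. As low as GbMADS8 were 0 of 59 and 4 of 100 like sequences in those windows, and as low as the AGAMOUS-like record 3 of 369 and 6 of 544.

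Python 3.11.15, scipy 1.17.1 and edgeR 4.0.16 (for TMM factors only) were used. The intervals were tested on data simulated with counting error alone, which is what they assume. Reads stacked on part of a sequence were not simulated. Alternatives were other pseudocounts, filters, scalings, subsets of members and sums per description.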

Additional observations from a re-analysis of the deposited data

How the results depend on the processing

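The calls (11 members each way) gave 2 in ovule with assembled sequences alone and 6 with reads summed per description. The leaf calls became 3 at an RPKM of at least 5, 5 with reads summed per description, 7 with a counting interval that excludes 1, and, as alternatives chosen after seeing the data, 6 at an E value of at most 1e-30, 5 at 10 or more reads and 3 among GenBank sequences. The 8.61-fold ovule excess of summed reads turned to 0.629 (ovule over leaf) with assembled sequences alone, and became 3.48 without the GbMADS8 record. It became 10.3 at an E value of at most 1e-30 and 21.4 among GenBank sequences. All these rest on fewer sequences. The cause of the difference between assembled and GenBank sequences was not tested. The median log2 ratio of 0.31 changed sign without a filter (-0.45) and among assembled sequences (-1.76), inside its wide interval. TMM and TPM scaling moved it to 0.19 and 0.18, and the median of all sequences from -0.10 to -0.24 and -0.25, so ratios near 0 carry no direction. Both scalings left 10 ovule calls, since Unigene24686 went under 2-fold. The widened description rule added 0 members. The GbMADS8 ratio was 8.01, and 7.23 with a pseudocount of 1 and 5.83 summed per description. Depth limits 15 members under 6 reads. No paired analysis was possible because each tissue has 1 library.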

Other observations

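The deposited gene ontology annotation covered the family thinly: 21 of the 34 members carried no term at all, the GbMADS10 record among them. The term for specification of floral organ identity was attached to 18 sequences, of which 4 were members: the GbMADS11 EST of 691 bases, CL3198.Contig6 and CL3198.Contig8 with GbMADS7 as best hit, and the pine-like EST. Of these members, the first was higher in ovule and the other 3 had 0 ovule reads and 9, 3 and 2 leaf reads. Over the 14 sequences with this term past the filter, 3 were called toward ovule and 7 toward leaf, beside 27.3% and 35.1% of all sequences past the filter. With an interval that excludes 1, the calls were 3 and 4, beside 17.3% and 13.6%. The GbMADS8 and AGAMOUS-like records, with the most ovule reads, carried the general terms for transcription factor activity and regulation of transcription but not this one.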
